A study of Mus musculus with 6 samples.

Results

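The glucocorticoid receptor gene Nr3c1, Hsd11b1, whose enzyme regenerates active glucocorticoid inside cells, and 8 genes known as glucocorticoid targets (Fkbp5, Tsc22d3, Sgk1, Klf9, Ddit4, Cdkn1a, Mt1 and Mt2) were followed in epididymal white adipose tissue (WAT), the fat pad beside the testis, of mice whose sleep was restricted. Every probe set annotated to exactly 1 of these 10 symbols was taken, whatever its signal, which gave 10 of the 12394 genes and 23 of the 22690 probe sets on the array. All mice were male C57BL/6 wild types aged 9 to 11 weeks and were killed at ZT18, in the middle of the dark phase (ZT0 is lights on). Mice under timed sleep restriction (TSR) were kept awake by gentle handling from ZT 0 to ZT 6 on 5 days in a row and killed on the last of them, and control mice were not restricted. Each group had 3 arrays. Neither source says if an array stands for a single mouse or for several, so each p-value reflects only how far these samples scatter. On RNA the sources differ: the labels give liquid nitrogen and Trizol, the methods RNAlater and a lipid tissue kit. Plasma corticosterone was not analysed here.

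The glucocorticoid receptor rests in the cytoplasm in a complex with heat shock proteins and co-chaperones. When corticosterone, the main glucocorticoid of mice, binds, the receptor moves to the nucleus and activates or represses genes, and its most direct targets respond within hours. In adipose tissue glucocorticoids act on lipolysis, fat cell differentiation and inflammation, and their blood level follows a daily rhythm. Many of the targets have other regulators too: metals act on metallothionein genes, p53 on Cdkn1a, and low oxygen or low energy on Ddit4.

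Promoter sequences were compared first, because the targets are often grouped by the elements near their transcript starts. The receptor binds inverted copies of the hexamer AGAACA that lie 3 bases apart. On the other strand the hexamer reads TGTTCT. The factor MTF1 binds metal response cores, of which TGCGCNC was searched for as the form with G. The form with A was TGCACNC. RefSeq promoter windows of the mouse build GRCm38.p6, from 250 bases before to 50 bases after each start, were found for 9 of the 10 genes (17 windows) and searched on both strands for these motifs and for CACGTG, the E-box. The hexamer was present in 4 of the 17 windows and in 19% of all 32851 windows. An inverted pair of hexamers 3 bases apart was present in 3 of all windows, and 1 of these is start 5 of the 6 annotated starts of Sgk1, at position 21993890 on chromosome 10, inside the gene. Its first base lay 189 bases before the start (chr10:21993701-21993715). Farther upstream a CACGTG overlapped another hexamer. At start 3 of Tsc22d3, which lies farthest upstream in the gene, a single hexamer lay 185 bases before the start (chrX:140600702-140600707). The other two windows with a hexamer belong to starts 1 and 4 of Sgk1.

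Mt2 held 4 metal response cores and Mt1 held 3 in their windows, against 1.97% of all windows with at least 3 and 0.517% with at least 4. A single core lay in the windows of Hsd11b1, of Ddit4 and of start 6 of Sgk1, and 25.7% of all windows held at least a single core. Fkbp5 held a CACGTG 169 bases before its start, as did 7.15% of all windows at any position. None of these letters was found in the windows of Klf9 and Cdkn1a, which says nothing of elements farther away. The 250 bases before the start are shown for Sgk1 and Tsc22d3, the genes with a hexamer before a start, and for both metallothionein genes, whose windows held the most cores. The stretch shown for Mt1 holds 1 of its 3 cores and that for Mt2 holds 3 of its 4, since the others lie after the start. They are written 5′ to 3′ on the strand of the gene, plus for Sgk1 (chr10:21993640-21993889), Mt1 (chr8:94178839-94179088) and Mt2 (chr8:94172368-94172617) and minus for Tsc22d3 (chrX:140600523-140600772). Capitals mark hexamers and CACGTG in Sgk1, with the bases between the paired hexamers, the hexamer in Tsc22d3, and the metal response cores in Mt1 and Mt2.
Sgk1, start 5: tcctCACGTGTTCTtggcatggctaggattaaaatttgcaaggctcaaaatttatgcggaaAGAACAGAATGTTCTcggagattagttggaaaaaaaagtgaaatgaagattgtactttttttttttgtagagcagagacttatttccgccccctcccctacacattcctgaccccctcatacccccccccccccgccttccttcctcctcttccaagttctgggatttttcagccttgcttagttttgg
Tsc22d3, start 3: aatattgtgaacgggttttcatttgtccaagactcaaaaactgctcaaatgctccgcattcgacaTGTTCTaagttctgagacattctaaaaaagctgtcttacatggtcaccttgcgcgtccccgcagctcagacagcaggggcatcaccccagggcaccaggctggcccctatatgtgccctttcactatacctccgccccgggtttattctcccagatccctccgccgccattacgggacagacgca
Mt1: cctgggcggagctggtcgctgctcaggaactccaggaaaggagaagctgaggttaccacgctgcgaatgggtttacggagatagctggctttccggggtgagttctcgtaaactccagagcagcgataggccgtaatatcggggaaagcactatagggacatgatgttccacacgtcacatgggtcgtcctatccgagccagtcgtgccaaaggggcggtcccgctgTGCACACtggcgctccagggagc
Mt2: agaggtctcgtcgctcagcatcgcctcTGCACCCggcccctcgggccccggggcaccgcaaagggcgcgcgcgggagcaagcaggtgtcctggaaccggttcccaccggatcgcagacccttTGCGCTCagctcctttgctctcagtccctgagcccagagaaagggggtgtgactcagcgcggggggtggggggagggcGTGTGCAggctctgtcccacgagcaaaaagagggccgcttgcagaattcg

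**Figure D1:**
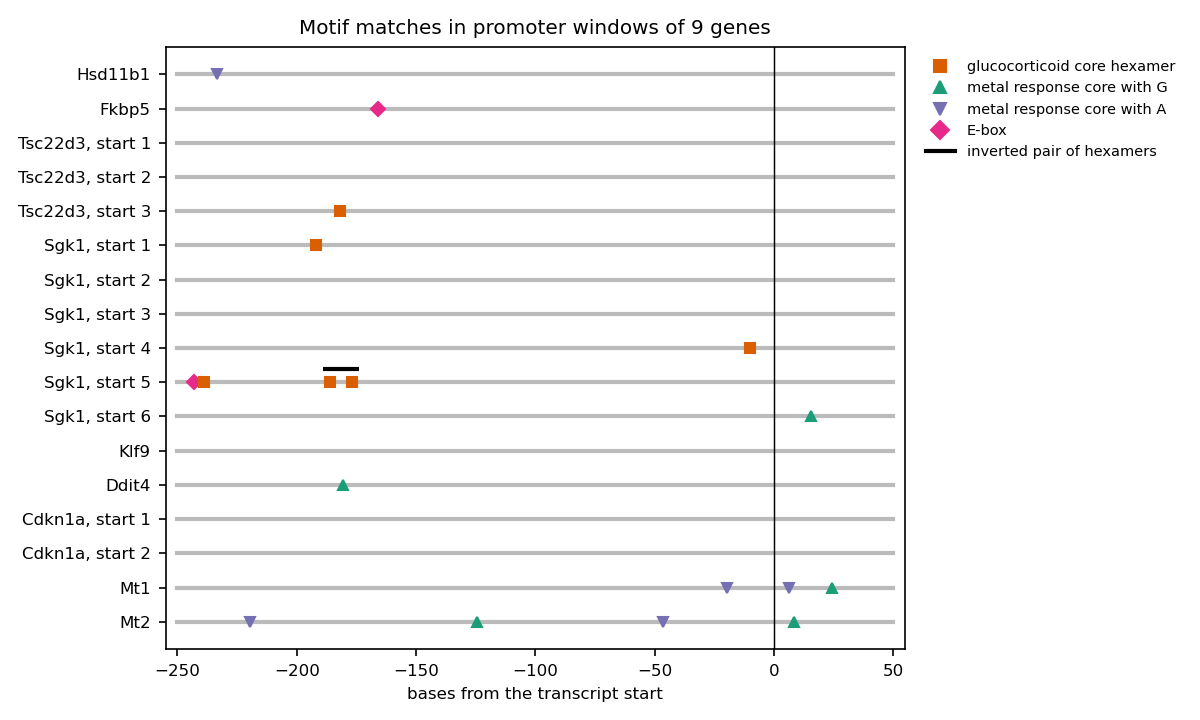
Matches to the motifs in the promoter windows of 9 genes, by distance in bases from the transcript start (horizontal axis), with 1 line per annotated start and a symbol at the middle of each match. The inverted pair of hexamers appears at start 5 of Sgk1, and the metal response cores gather in the windows of Mt1 and Mt2.

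The values are MAS5 signal intensities on a linear scale, scaled by the authors on each array, and signals of different probe sets cannot be set against each other as levels. The dimmest 35% of probe sets were not tested, nor were control probe sets, and TSR was compared with control on log2 signals with limma over the remaining 14707 probe sets (adjusted p under 0.05). Of all tested probe sets 46.6% passed, 25.6% higher and 21.0% lower after TSR. Centring each array on its median shifts all log2 fold changes by -0.11 and turns the 3768 higher and 3082 lower calls into 2452 and 4363, while quantile normalization gave 3099 and 3380. Pearson's r across tested probe sets, which are not independent replicates, was 0.991 to 0.993 for arrays of the same group and 0.962 to 0.965 for arrays of different groups. Fat cell markers were bright in every array: mean signals of Fabp4 were 22601 in control and 16823 in TSR samples, and those of Adipoq 18072 and 13080. Of 8 tested fat cell markers 4 were higher and 4 lower after TSR, and after quantile normalization 3 were higher and 0 lower. The log2 fold changes of Fabp4 (-0.43) and Adipoq (-0.46) then became -0.08 and -0.09 and did not pass. Of 20 hepatocyte markers on the array, 19 gave more signal in each TSR sample than in any control sample, their sum was 648 to 732 in control and 11142 to 11615 in TSR samples, and in control samples 4 of them lay below the 25th percentile of each array. The summed signal of 13 macrophage markers was 27088 to 28030 in control and 18285 to 18585 in TSR samples. The 5′ minus 3′ log2 signal of beta-actin control probe sets was -1.22 ± 0.012 in control and -0.67 ± 0.0013 in TSR samples (SD, n = 3). The part of these differences in the results that follow was not tested.

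Of the 23 probe sets, 19 entered the test and 4 fell below the filter. Signals of 6 rose and those of 8 fell, 14 of 19 (73.68%) against 46.6% of all tested probe sets, and 5 did not pass. A change of at least 2-fold past the threshold was seen in 5 of the 19 (26.3%), against 3.42% of all tested probe sets. They belong to Cdkn1a and Fkbp5, which rose, and to Sgk1 and Ddit4, which fell. In 14 of the 19 the groups did not overlap, against 56.6% of all tested probe sets. The median log2 fold change over the 19 was -0.11, and over all tested probe sets it was 0.04. Hsd11b1 was thus lower, and the targets split in direction. Fkbp5 and Cdkn1a were higher by every call, and Sgk1, Klf9, Ddit4 and Mt2 were lower by every call. Tsc22d3 had calls in both directions.

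**Figure D2:**
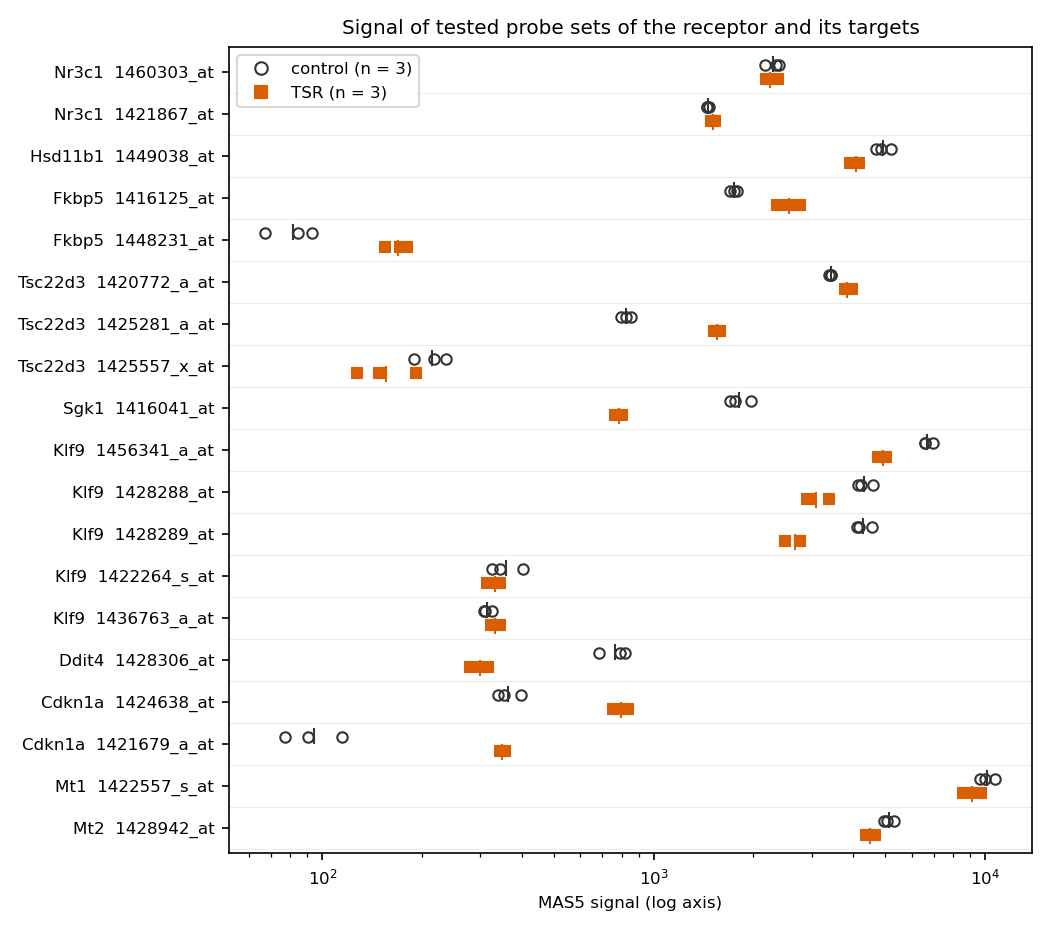
MAS5 signal (log axis) of the 19 tested probe sets in each array, with circles for the 3 control and squares for the 3 TSR samples and a short line at each group's mean. The groups are separate for Sgk1, Ddit4, Fkbp5 and Cdkn1a, and overlap for the brightest Nr3c1 probe set and for Mt1.

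No change in the receptor transcript passed the test. The brightest Nr3c1 probe set (1460303_at) gave 2166, 2339 and 2387 in the control samples and 2190, 2192 and 2372 in the TSR samples. The groups overlapped almost entirely, with means of 2298 ± 116 and 2252 ± 105 (SD, n = 3). The log2 fold change was -0.03, with a 95% interval from -0.15 to 0.09 and an adjusted p of 0.69. A further probe set (1421867_at) gave 1449, 1470 and 1451 against 1486, 1537 and 1519. All TSR samples were above all control samples there, by a log2 fold change of 0.06 (95% interval -0.04 to 0.15, adjusted p = 0.29), and under median centring the difference turned to -0.05. The remaining Nr3c1 probe set (1421866_at) was below the filter, with signals of 22.7 to 32.2 in control and 29.9 to 39.3 in TSR samples.

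Hsd11b1 fell. Its enzyme, 11β-hydroxysteroid dehydrogenase type 1, turns the inactive 11-dehydrocorticosterone into corticosterone in fat and liver. The control samples gave 4861, 5219 and 4697 and the TSR samples 4121, 4170 and 3923, so that every TSR sample lay below every control sample. Means were 4926 ± 267 and 4071 ± 130 (SD, n = 3), a log2 fold change of -0.27 (SE 0.05, adjusted p = 0.0026). In whole tissue, fewer cells of a type and less RNA per cell cannot be told apart. Signals of hepatocyte markers were higher in the same TSR samples, and their relation to Hsd11b1 was not tested.

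Fkbp5 rose in both of its probe sets. The gene encodes FKBP51, a co-chaperone that lowers the hormone affinity of the receptor and that glucocorticoids induce in many tissues. At 1416125_at the control samples gave 1700, 1745 and 1787 and the TSR samples 2549, 2768 and 2363. The gap between the groups was wider than the spread within either of them, and the ratio of means was 1.47 (log2 fold change 0.55, SE 0.06, adjusted p = 0.00012). The dimmer 1448231_at gave 92.9, 67.3 and 84.4 against 172, 180 and 155, with no overlap. There the ratio was 2.07 (log2 fold change 1.06, SE 0.15, adjusted p = 0.00046), and this log2 fold change was higher than that of 98.2% of all tested probe sets.

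Cdkn1a had the largest rise among the 10 genes. It encodes p21, an inhibitor of cyclin-dependent kinases that halts the cell cycle and that p53 induces as well. Its brighter probe set (1424638_at) gave 340, 353 and 397 in control and 755, 837 and 792 in TSR samples, from 363 ± 29.9 to 795 ± 41.4 (SD, n = 3). Every TSR sample was above every control sample, with a log2 fold change of 1.13 (SE 0.07, adjusted p = 6.2e-06). At 1421679_a_at the control samples gave 77.2, 90.8 and 115 and the TSR samples 347, 356 and 343, a ratio of means of 3.70 (log2 fold change 1.91, SE 0.14, adjusted p = 1.3e-05). All 4 tested markers of dividing cells were lower in the same TSR samples, with a summed signal over 9 measured markers of 612 to 645 in control and 276 to 282 in TSR samples. The other measured markers were below the filter, and the relation of the markers to Cdkn1a was not tested. Mki67 went from 142 ± 11.8 to 34.7 ± 7.17 and Top2a from 119.6 ± 8.70 to 47.4 ± 6.18 (SD, n = 3).

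Sgk1 fell to under the level of any control sample. The serum- and glucocorticoid-regulated kinase acts on ion channels and transporters. Its single probe set (1416041_at) gave 1759, 1694 and 1967 in the control samples and 766, 782 and 803 in the TSR samples. The TSR samples lay close together and the groups were far apart, with means of 1807 ± 143 and 784 ± 19.0 (SD, n = 3) and a log2 fold change of -1.20 (SE 0.06, adjusted p = 1.7e-06). Only 0.653% of all tested probe sets, this one included, had a log2 fold change as low or lower. The direction was thus opposite to that of Fkbp5 in the same arrays. The inverted pair of hexamers lay at start 5 of the 6 starts of Sgk1, and which start is used in these samples was not tested.

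Ddit4 fell most of the 10 genes. Its protein, REDD1, inhibits mTORC1, the kinase complex that drives growth, and is induced by glucocorticoids, low oxygen and energy shortage. The control samples gave 793, 817 and 684 and the TSR samples 278, 303 and 317, with no overlap. From 765 ± 71.2 the mean went to 299 ± 19.7 (SD, n = 3), a log2 fold change of -1.35 (SE 0.08, adjusted p = 4.7e-06). A log2 fold change as low or lower was seen in 0.394% of all tested probe sets, Ddit4 included.

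Klf9, which encodes a zinc finger transcription factor, fell in its 3 brightest probe sets. At 1456341_a_at signals were 6595, 6577 and 6943 in control and 5037, 4742 and 4946 in TSR samples (log2 fold change -0.45, SE 0.05, adjusted p = 8.6e-05). At 1428288_at they were 4222, 4590 and 4130 against 2973, 3372 and 2910 (log2 fold change -0.49, SE 0.07, adjusted p = 0.00044). At 1428289_at they were 4115, 4557 and 4179 against 2764, 2760 and 2492 (log2 fold change -0.68, SE 0.06, adjusted p = 3.4e-05). In none of these probe sets did the groups overlap. The dimmer probe sets of the gene did not pass: 1422264_s_at had a log2 fold change of -0.11 (adjusted p = 0.37) and 1436763_a_at of 0.08 (adjusted p = 0.34), and their groups overlapped. The other two Klf9 probe sets, 1436952_at and 1452723_at, were below the filter, with control means of 37.7 and 15.8 and TSR means of 40.1 and 21.0.

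Tsc22d3, also known as Gilz, encodes a leucine zipper protein that mediates anti-inflammatory effects of glucocorticoids, and its probe sets disagreed. The brightest (1420772_a_at) gave 3393, 3433 and 3438 in control and 3794, 3956 and 3774 in TSR samples. All TSR samples were higher, by a log2 fold change of 0.17 (SE 0.04, adjusted p = 0.0092), but under median centring the difference was 0.06 and did not pass (adjusted p = 0.40). At 1425281_a_at the control samples gave 857, 798 and 828 and the TSR samples 1548, 1516 and 1587, so that the gap was far wider than the spread within the groups. That ratio of means was 1.87 (log2 fold change 0.91, SE 0.05, adjusted p = 2.0e-06). The dimmest, 1425557_x_at, gave 236, 189 and 218 against 191, 127 and 149, and its groups overlapped. Its log2 fold change of -0.48 (SE 0.16) passed with an adjusted p of 0.033. The call was lost in 8 of 15 alternatives (adjusted p from 0.057 to 0.14), among them leaving out control 1, control 3, TSR 2 or TSR 3 (0.079 to 0.11), and the suffix of this probe set marks probes that may bind other transcripts.

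The metallothioneins, small proteins that bind zinc and copper, shifted little. Mt2 gave 5077, 5322 and 4954 in control and 4440, 4658 and 4366 in TSR samples, with every TSR sample lower. The log2 fold change was -0.19 (SE 0.05, adjusted p = 0.010), and after quantile normalization it was -0.10 and did not pass (adjusted p = 0.053). Mt1 (1422557_s_at) gave 9972, 10756 and 9637 against 9176, 9727 and 8576, and the groups overlapped. Its log2 fold change of -0.14 (SE 0.06) did not pass (adjusted p = 0.089), and its sign depended on the scaling: -0.25 with median centring (adjusted p = 0.025) and 0.13 with quantile normalization (adjusted p = 0.013), each past the threshold. Without TSR 2 it was -0.19 (adjusted p = 0.048). A further Mt1 probe set (1451612_at) was below the filter, with signals of 35.3 to 52.0 in control and 26.5 to 49.5 in TSR samples.

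**Figure D3:**
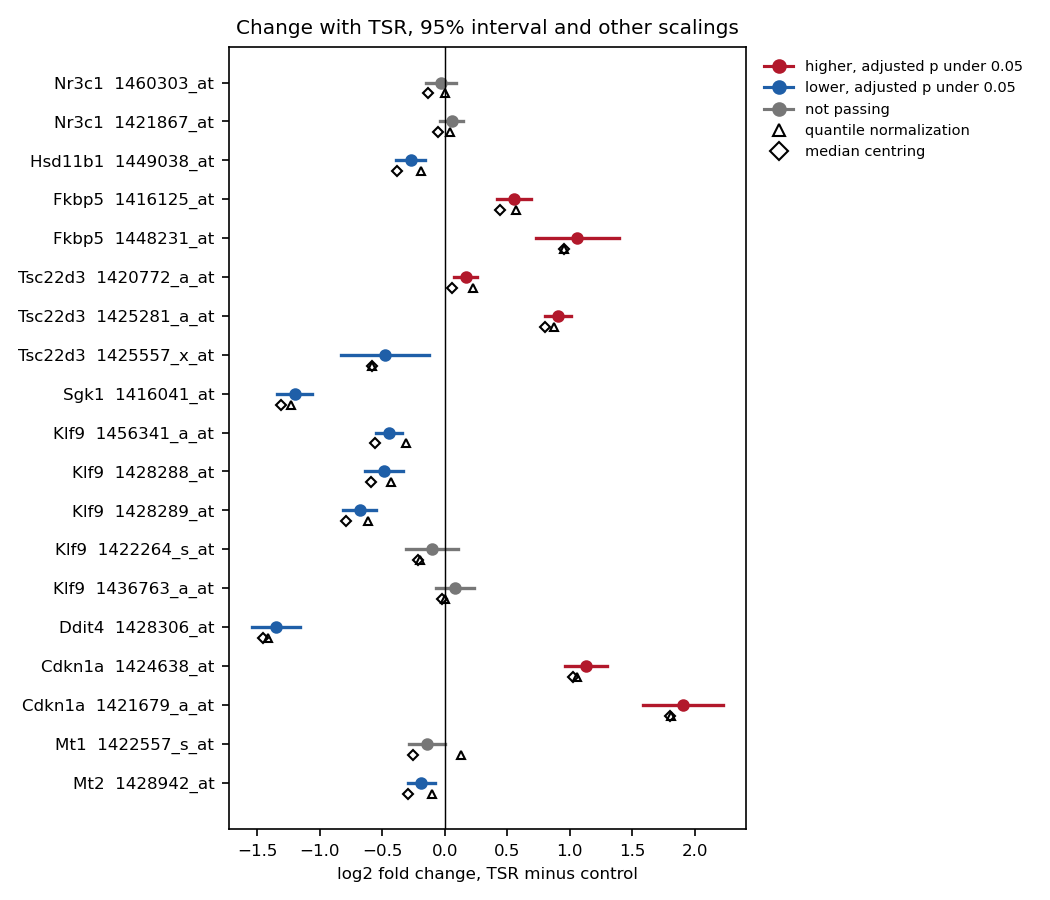
Log2 fold change of each tested probe set, TSR minus control, with its 95% interval from limma (filled points, n = 3 per group, coloured by call) and the value after quantile normalization (triangles) and median centring (diamonds). The changes of Sgk1, Ddit4, Fkbp5 and Cdkn1a kept their sign in all of these, whereas Mt1 lay on both sides of zero.

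Differences between probe sets of the same gene were measured inside each array, where any scaling factor of the array cancels, by subtracting the log2 signal of the gene's brightest probe set from that of each other tested one. In 7 of the 9 pairs the groups did not overlap. The share over probe set pairs of other genes was not computed, and of single tested probe sets 56.6% had no overlap. The exact permutation p without overlap was 0.1, the smallest that 3 against 3 arrays allow, so no pair could pass a threshold of 0.05. Against 1420772_a_at of Tsc22d3, 1425281_a_at changed by 0.74 and 1425557_x_at changed by -0.64 with TSR. The difference changed by 0.77 for Cdkn1a and by 0.51 for Fkbp5 (exact permutation p = 0.1 each). For Klf9, the differences from 1456341_a_at changed by -0.04 for 1428288_at (exact permutation p = 0.8), -0.23 for 1428289_at, 0.34 for 1422264_s_at and 0.53 for 1436763_a_at. The Nr3c1 probe sets moved by 0.08 against each other, with overlap (exact permutation p = 0.2). A difference in 5′ minus 3′ signal between the groups does not cancel inside an array. That of beta-actin control probe sets went from -1.22 in control to -0.67 in TSR samples, and that of Gapdh from -0.52 to 0.13. Its part in these changes, and which transcripts each probe set detects, were not tested.

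**Figure D4:**
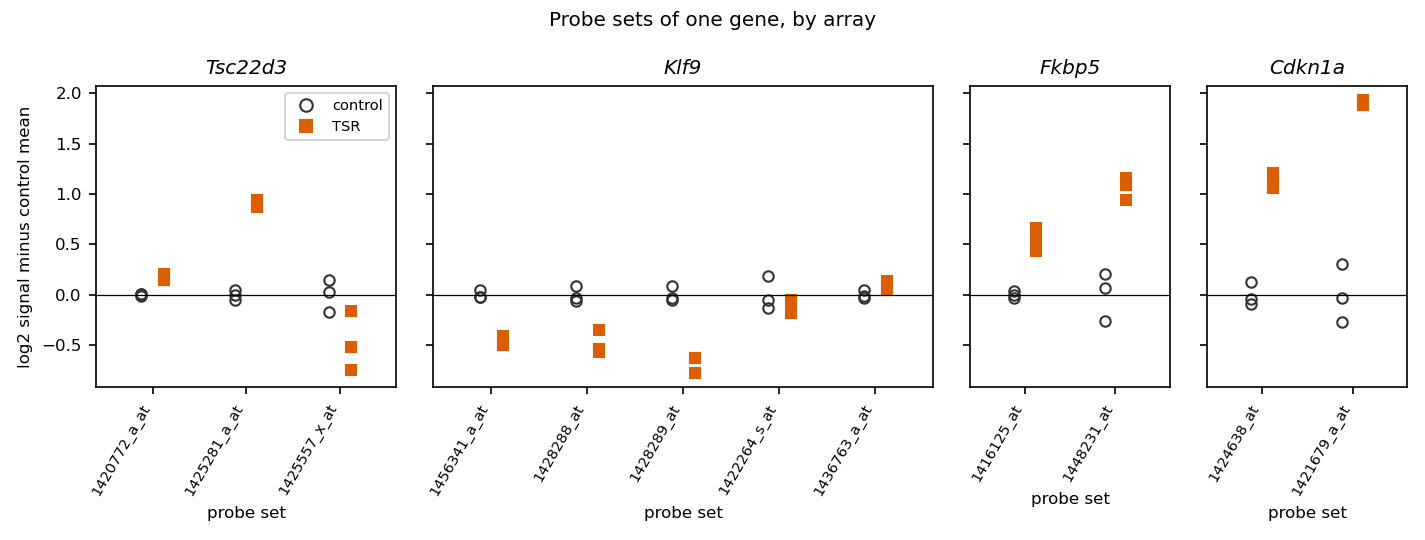
Log2 signal of each tested probe set minus its control mean (vertical axis), by array, for the 4 genes with several tested probe sets and a call. The means of the Tsc22d3 probe sets over the TSR samples spread from -0.48 to 0.91, and in Fkbp5 and Cdkn1a both probe sets rose by different amounts.

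Genes whose pattern over the 6 arrays lay closest to Nr3c1, by Euclidean distance between log2 signals centred on the control mean over 8619 genes, were Mob1b (0.0682), Dhx16 (0.0739) and Phtf2 (0.0748). Closest to Fkbp5 were Ltbr (0.0677), Aldh1l1 (0.0743) and Sult1a1 (0.0990).

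Related genes were described from 9 lists, each gene by its brightest probe set. Of 150 listed genes 128 were found on the array and 108 were tested, and 74 of these passed (68.5%), 31 higher and 43 lower, against 47.0% of all 8619 genes (24.0% higher, 23.0% lower). Of 16 chaperones and coregulators of the receptor, 7 rose and 3 fell. The median log2 fold change was 0.03, against 0.01 over all 8619 genes. With median centring the list median was -0.08, and with quantile normalization 0.15. Over all tested probe sets, rather than genes, the median was 0.04, or -0.07 and -0.01 under these scalings. Fkbp4, the co-chaperone that counteracts FKBP51, gave 286, 330 and 285 in control and 428, 447 and 470 in TSR samples, a log2 fold change of 0.58 (adjusted p = 0.00045). Dnajb1 (0.44), which encodes a heat shock protein of the HSP40 family, and Stip1 (0.42), whose product links HSP70 to HSP90, rose too. The corepressor Nrip1 fell by 0.33 on the log2 scale. Hspa8, the brightest of the list, had a log2 fold change of -0.04 (adjusted p = 0.71), which became 0.29 and passed after quantile normalization.

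Among 26 other genes known to be induced by glucocorticoids, 8 rose, 13 fell and 5 did not pass, with a median log2 fold change of -0.17. Pdk4, a kinase that blocks pyruvate oxidation, gave 1238, 1301 and 1278 in control and 429, 445 and 486 in TSR samples (log2 fold change -1.49, adjusted p = 4.6e-07). Angptl4, an inhibitor of lipoprotein lipase, fell to 0.501 of its control mean, the insulin receptor substrate Irs2 to 0.506 and the transcription factor Cebpd to 0.524. Lpl, the lipase itself and the brightest of the list, had a log2 fold change of -0.39 (adjusted p = 0.0044), or -0.02 after quantile normalization, where it did not pass. Per1, a clock gene that the receptor also induces, gave 290, 321 and 321 against 195, 235 and 194 (log2 fold change -0.59, adjusted p = 0.0014), with no overlap. Genes that rose, named after their values were seen, were led by Rhob (0.69), a small GTPase, and Lipe (0.61), hormone-sensitive lipase.

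Of 5 tested genes of corticosteroid metabolism and entry 1 rose, 1 fell and 3 did not pass. Their median log2 fold change of 0.16 is the value of Pomc, which did not pass (adjusted p = 0.59), and it was 0.04 with quantile normalization and 0.05 with median centring. Mc2r, the receptor for ACTH, went from 539 ± 13.1 to 663 ± 4.30 (SD, n = 3), and the efflux pump gene Abcb1a from 389 ± 31.9 to 297 ± 3.27. The log2 fold changes were 0.30 (adjusted p = 0.0014) and -0.39 (adjusted p = 0.0033). Hsd11b2, whose enzyme inactivates corticosterone, gave 54.4, 41.5 and 45.7 against 50.5, 62.6 and 63.1, with overlap (adjusted p = 0.20).

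Glucocorticoid-induced genes of the liver moved in different directions. Tdo2, which starts tryptophan breakdown, gave 61.2, 69.3 and 62.2 in control and 131, 166 and 157 in TSR samples (log2 fold change 1.23, adjusted p = 0.00015). Pck1, which fat also uses for glyceroneogenesis, fell from 4149 ± 299 to 1975 ± 181 (SD, n = 3; log2 fold change -1.07). Whether Pck1 responds to glucocorticoids in fat as it does in liver was not tested. Agt, the angiotensinogen gene, had a log2 fold change of 0.16 (adjusted p = 0.054) and passed after quantile normalization (0.25). Tat, named after its values were seen, was below the filter, with signals of 1.86, 4.69 and 2.57 in control and 96.3, 94.2 and 89.8 in TSR samples. Against the 25th percentile of the control arrays it was at least 4.21-fold higher (adjusted p = 0.00017 in the fit without a filter). The hepatocyte markers Alb and Ttr rose in the same arrays, by log2 fold changes of 4.66 and 5.29, and their relation to Tdo2 and Tat was not tested.

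Of 14 inflammatory genes on the array that glucocorticoids repress, 8 were tested. Il6, Il1b, Tnf, Ptgs2, Nos2 and Cxcl1 were below the filter. Of the 8 tested genes 7 fell and 1 rose, with a median log2 fold change of -0.95. Vcam1, an adhesion molecule, gave 538, 396 and 475 in control and 152, 173 and 160 in TSR samples (log2 fold change -1.53, adjusted p = 1.5e-05). The chemokine genes Ccl7, Ccl5 and Cxcl10 fell by 1.31, 1.20 and 1.04 on the log2 scale. Csf1, the growth factor of macrophages, was the exception, at 0.21 (adjusted p = 0.041), and its call was lost under both other scalings. Of 13 tested macrophage markers 12 fell in the same arrays, with a median of -0.55 and signals of every marker lower in every TSR sample. Csf1r went from 5714 ± 108 to 4163 ± 112 and Lyz2 from 8065 ± 309 to 5624 ± 162 (SD, n = 3). Their part in the fall of the inflammatory genes was not tested.

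Other inputs to the same targets were described in the same way. Of 13 p53 targets 5 rose and 4 fell, with a median of 0.03 that turned negative under both other scalings. Gadd45a, a gene of growth arrest, gave 163, 206 and 171 in control and 937, 1021 and 918 in TSR samples, a log2 fold change of 2.42 (adjusted p = 4.4e-07). Sesn2 (-1.51) and Btg2 (-0.62) fell, as did Trp53inp1, from 1588 ± 39.7 to 806 ± 169 (SD, n = 3), and Ccng1, the brightest of the list, did not pass (-0.07, adjusted p = 0.46). Of 11 hypoxia response genes 3 rose and 4 fell (median -0.03). Adm (-0.69), Kdm3a (-0.64) and Bnip3 (-0.35) were lower, Vegfa (0.54) and P4ha2 (0.50) higher. After quantile normalization Bnip3 shrank to -0.10 and still passed (adjusted p = 0.043). Of 6 tested metal response genes only Selenow passed, with a log2 fold change of -0.39 (adjusted p = 0.0054), and the median of 0.02 turned negative under both other scalings.

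Family relatives of the targets numbered 20, of which 5 rose and 9 fell (median -0.11). Klf15, a Krüppel-like factor that glucocorticoids induce, rose from 590 ± 59.6 to 878 ± 43.4 (SD, n = 3; log2 fold change 0.58), while Klf9 and Klf2 (-0.46) fell. Cdkn1c, which encodes p57, a relative of p21, rose by a log2 fold change of 0.47, as did Fkbp8 by 0.44. Fkbp1a, the brightest of the list, did not pass (-0.14, adjusted p = 0.062).

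**Figure D5:**
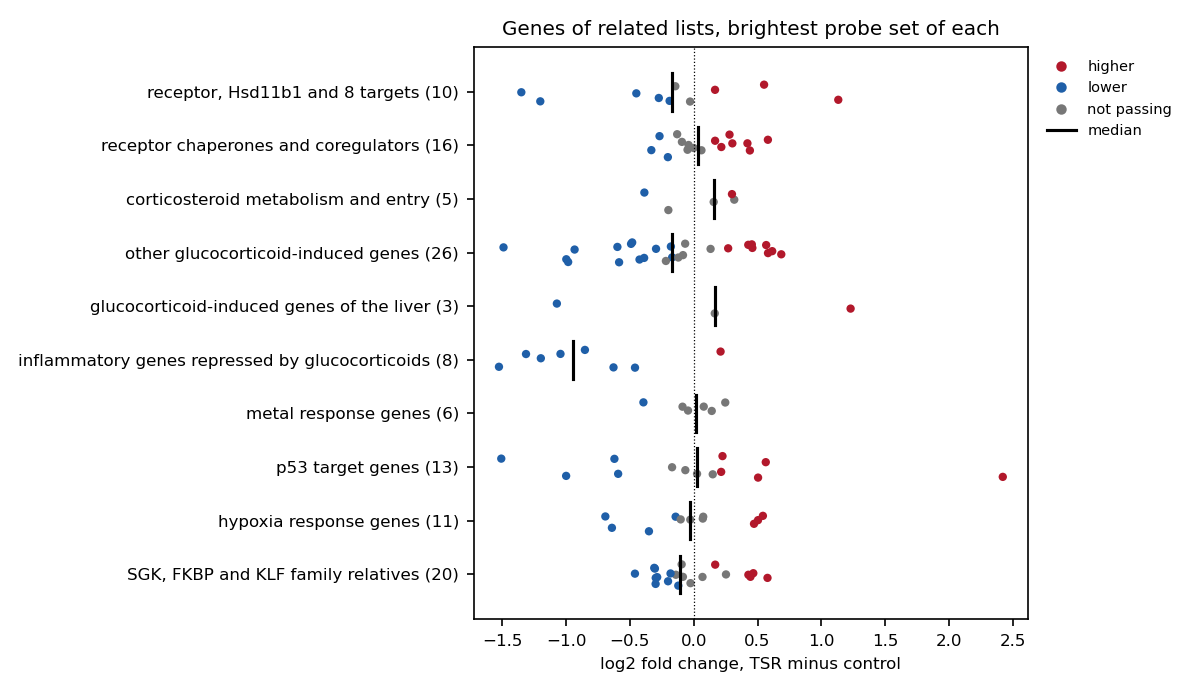
Log2 fold change, TSR minus control, of each tested gene by its brightest probe set, for the 10 genes and the 9 related lists (number tested in brackets), with points coloured by call and a vertical bar at each list's median. The inflammatory genes lie mostly below zero, and the other lists have points on both sides.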

How the data were processed

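Affymetrix mouse arrays were hybridised with RNA of epididymal WAT, 3 arrays per group. The authors computed MAS5 signals with Expression Console (version not given), and deposited the intensities unlogged. The table gives 1 symbol for 20393 probe sets, several for 691 and none for 1606. The 10 genes, the lists and the tests were chosen with earlier results of these data known.

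Signals were taken to log2. In place of the study's expression calls, not used here, a filter dropped control probe sets and 35% of the others, those with a mean log2 signal below 5.45. The rest went into limma 3.58.1 (R 4.3.3; two-sided eBayes with trend, no covariates), with Benjamini-Hochberg adjustment over all 14707 and a threshold of 0.05. Precision is limited by the number of arrays (median SD within groups 0.09, log2). Folds are ratios of mean signals. A fold is given as a bound, against the 25th percentiles of the control arrays, for a gene under them in every control sample. Differences between probe sets of a gene were compared with two-sided exact permutation tests.

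All probe sets of the 10 genes were named. From each list the text names up to 4 genes with the largest change past the threshold, the brightest gene, and genes called against most of the list where these were 2 or fewer. From marker lists it names the 2 brightest. Per1, Hsd11b2, Pomc, Rhob, Lipe and Tat were named after their values were seen. The inflammatory genes below the filter were named because they were not tested, as were G6pc and Igfbp1. Only hepatocyte, fat cell, macrophage and dividing cell markers are given by name. Other marker lists had few tested genes or mixed calls: T cells 0 higher and 1 lower, endothelium 3 and 4, mesothelium 1 and 2, skeletal muscle 1 and 0, with no epididymis marker past the filter. Fat cell markers had 4 higher and 4 lower. Promoters came from the RefSeq table of GRCm38.p6, and the promoter of Nr3c1 is not shown.

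Alternatives were the methods' t-test (Student's, on linear signals), the same on log2 signals, limma without the trend, median centring, quantile normalization, dropping no probe sets or the dimmest 50%, a floor at the 25th percentile, the replicate number as a block, each array left out in turn and, for lists, averaging all probe sets of a gene. The computation was tested on simulated data.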

Additional observations from a re-analysis of the deposited data

How the results depend on the processing

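Of the 19 tested probe sets of the 10 genes, 12 kept direction and call in every alternative that gave a value, among them 11 of the 14 that passed. With the lowest 50% left out, Fkbp5 1448231_at was not tested. Over the alternatives 5 to 7 probe sets were called higher and 7 to 9 lower, and leaving out each array in turn gave 6 higher and 7 to 8 lower. For all probe sets, leaving out an array gave 3075 to 3551 higher and 2525 to 2840 lower calls. Median centring gave 2452 higher calls in place of 3768. Log2 fold changes whose sign turned were those of Nr3c1 1460303_at (0.0006 with quantile normalization, adjusted p = 0.99), Nr3c1 1421867_at (-0.051 with median centring, adjusted p = 0.44), Klf9 1436763_a_at (-0.0001 with quantile normalization, adjusted p = 1.0, and -0.0239 with median centring, adjusted p = 0.81) and Mt1 1422557_s_at (0.1259 with quantile normalization, adjusted p = 0.013). The cause was not tested. The list genes gave 31 higher and 43 lower calls, 27 to 32 and 36 to 40 without an array, 23 and 49 with median centring, 24 and 33 by the methods' t-test, and 39 and 33 when all probe sets of a gene were averaged. With 3 arrays per group, small differences such as those of Nr3c1 are bounded only by their intervals.

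The groups share replicate numbers, but the numbers were not treated as pairs. Deviations of same-numbered samples correlated with r = 0.015, 0.19 and 0.17, and those of differently numbered samples with r from -0.22 to 0.058. Control 2 and control 3 correlated best with the TSR sample of the same number, and control 1 with TSR 3. Whether a number marks a shared batch was not tested. With the replicate block, 6 of the probe sets of the 10 genes were higher and 9 lower, since Mt1 1422557_s_at then passed (adjusted p = 0.0027). Over all probe sets the block gave 4043 higher and 3391 lower calls, and over the list genes 34 and 47.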
